A study of Mus musculus with 33 samples.

Results

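The regions described here are stretches of the mouse genome that gave RNA reads but lie far from any protein-coding gene. They were chosen by 3 conditions: no overlap with a gene of the RefSeq annotation of GRCm38, more than 50000 bases to the nearest edge of a protein-coding gene, and at least 50 estimated read counts summed over all 24 RNA libraries. Of 49745 numbered regions in the count tables, 18652 overlapped no gene and 6247 of these were far enough away. Among the 6247, 1407 were listed at 0, 3480 were above 0 but under the minimum, and 3 were left out because they lay in loci that the selection excludes. The remaining 1357 distal intergenic regions are 2.73% of all numbered regions. The summed count selected them, so their being transcribed is not a finding, and their levels are given as a description.

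Mammalian cells transcribe much of the genome between genes at low levels. Such RNA comes from active enhancers, from unannotated long noncoding RNAs and from polymerase that reads past gene ends, and most of it is short-lived. ZMYND8 carries a PHD finger, a bromodomain and a PWWP domain, modules that recognise marks on histones, and it is known as a factor that sits at enhancers and tunes their activity.

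All RNA came from CH12, an established B lymphoma line of the mouse that expresses IgM and can switch to IgA in culture. Of the 4 lines compared, WT and WT clone kept Zmynd8, and KO1 and KO2 were ZMYND8 knockout (KO) clones. Each line was cultured for 48 h either unactivated or activated, with 3 libraries per line and state, 24 in all, and the labels do not name the stimulus for these cultures. Each KO line is 1 clone, so an effect of the clone and an effect of the lost protein are shared by its libraries. The labels call the 3 libraries of a group biological repeats, and p-values below measure the spread between such cultures and not between independent knockouts.

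Sequencing depth ranged from 28.99 M to 34.07 M estimated counts per library. RNA from regions inside Zmynd8 was 1.24 to 3.24 CPM (counts scaled to a common library size, with 1000000 counts per library) in the WT libraries and 1.63 to 4.29 in the KO libraries. The position of the disruption in the gene is not given in the sources used here, so this RNA checks nothing about the protein. Summed CPM of 8 B cell marker genes with regions was 26.3 to 73.4 in WT and 47.5 to 93.0 in KO libraries. For 3 T cell genes, 1 of them at 0, it was 0.183 to 0.411 in WT and 0.396 to 0.892 in KO libraries. For 2 myeloid genes it was 0.30 to 1.05 and 0.24 to 0.975. The ranges of both genotypes overlapped for all 3 lists, but those of the T cell genes only from 0.396 to 0.411. The part of these levels in the results below was not tested.

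The distal regions were 251 to 17924 bases long, with a median of 1482. The median distance to a protein-coding gene was 113405 bases, and 366 regions (27.0%) lay over 200000 bases away. Noncoding genes were often closer: the nearest gene of any kind was a long noncoding RNA for 724 regions (53.4%) and a pseudogene for 404 (29.8%). For 92 regions (6.78%) that gene lay within 2000 bases. The 1357 regions fell into 668 intervals between neighbouring protein-coding genes, of which 389 held 1 region and 58 held 5 or more. Where regions lay under 5000 bases apart they may belong to 1 RNA, and joining these gave 1271 clusters. Regions of 1 cluster or interval are not independent of each other.

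For 4 regions the deposited interval reaches into the 250 bases before an annotated start, where RefSeq sequence (GRCm38.p6) was at hand. The stretch of region_31751 is printed because its RNA differed between genotypes, as given further on. It covers chr3:137289367-137289514 and lies upstream of the noncoding gene Gm567 on the plus strand. The end of region_6910 at chr11:20469231-20469252, upstream of Gm39607, is printed because its RNA rose with activation.
region_31751: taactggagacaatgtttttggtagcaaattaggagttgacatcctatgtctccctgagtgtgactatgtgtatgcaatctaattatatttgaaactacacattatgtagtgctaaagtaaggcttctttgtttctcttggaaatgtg
region_6910: tagcttaaactggtctcaaact
Neither stretch held, on either strand, the E-box CAGGTG, the octamer ATGCAAAT, the AP-1 site TGANTCA, the ETS site GAGGAAG, the TATA box TATAAA or the GATA site AGATAA. In windows of the same place and length as that of region_31751 over 32851 RefSeq promoters, the shares holding these motifs were 10.75%, 0.913%, 3.92%, 5.99%, 7.21% and 6.49% in the same order. For the 22 bases of region_6910 they were 1.34%, 0.08%, 0.438%, 0.661%, 1.07% and 0.828%. Absence was thus likely for any promoter, above all in the shorter window, and says little.

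Most of these regions were near the limit of detection. The median summed count was 122, and 552 regions had under 100 counts over all libraries. A few carried much of the signal: the single most abundant took 19.8% of all counts in distal regions, and the top 50 took 52.9%. Together the regions took 0.0530% to 0.0868% of a library. That share had a median of 0.0574% in unactivated WT, 0.0654% in unactivated KO, 0.0700% in activated WT and 0.0802% in activated KO libraries (n = 6 each). Without the 4 most abundant regions the medians were 0.0360%, 0.0420%, 0.0491% and 0.0627% in the same order.

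The 5 regions with the highest mean CPM behaved differently from each other. Changes are log2 changes with their standard error (SE) from edgeR's quasi-likelihood test, and adjusted p-values are Benjamini-Hochberg values over all targets tested. The most abundant was region_26621 (chr2:39414926-39417786, 188577 bases from Ppp6c, a phosphatase subunit gene), at a mean of 51.2 CPM per kilobase. It ran from 121 to 185 CPM in unactivated WT libraries with a median of 156, and from 100 to 115 in activated KO libraries with a median of 106. It fell with activation in WT lines (log2 change -0.37 ± 0.07 SE, adjusted p = 0.00106) and in KO lines (-0.63 ± 0.07, adjusted p = 4.12e-06). Activated KO libraries lay below all unactivated KO libraries, while the WT groups overlapped.

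Region_16717 (chr15:11532307-11536883, 132649 bases from the threonyl-tRNA synthetase gene Tars) also fell with activation, by 0.39 ± 0.08 in WT and 0.49 ± 0.08 in KO lines on the log2 scale (adjusted p = 0.00085 and 8.62e-05). Unactivated, it was called higher in KO lines, at 34.0 to 39.3 CPM against 25.6 to 31.7 in WT libraries. That call was lost without any of 10 libraries, with log2 changes of 0.22 to 0.28. Region_1356 (chr1:84985581-84995183, nearest to the transporter gene Slc16a14) rose with activation. Its median was 14.5 CPM in unactivated and 20.7 CPM in activated WT libraries, a log2 change of 0.54 ± 0.10 (adjusted p = 0.000458), and the groups did not overlap. Region_42245 (chr7:82995675-82998601), 709 bases from the annotated noncoding gene Gm22934 and 124099 from the RNA-binding protein gene Mex3b, passed no test. Region_48679 on chromosome X, 60058 bases from Btbd35f28, ranged from 4.29 to 110 CPM across libraries and passed no test either; it lies among copies of the Btbd35f family, so reads may be shared with near-identical copies.

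At the thresholds of the selection, the regions just inside the count limit were region_42714 and region_11985, each with a total of 50.0 counts, and those just outside were region_23289 and region_1026 with 49.9 and 49.99. On distance, region_36024 at 50001 and region_33717 at 50015 bases were inside, and region_2900 at 49954 and region_135 at 49991 bases were outside.

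For the tests, 584 of the 1357 regions passed the filter on low counts, and the other 773 were not tested. A region could pass through its high group alone, so the counts below describe the tested regions only and support no statement on all of them. In unactivated cells, RNA from 48 of the 584 was higher in KO than in WT lines and that from 13 was lower, called at an adjusted p under 0.05. Over all 61074 targets tested, 3.13% were higher and 4.03% lower. In activated cells 58 were higher and 10 lower, against 3.5% and 3.02% of all targets. Over all 11264 numbered regions tested, 3.75% were higher and 2.64% lower unactivated, and 5.66% and 1.35% activated. The median log2 change of the tested regions was 0.03 in unactivated and 0.14 in activated cells, beside -0.04 and 0.00 for all targets; with a fit on numbered regions alone they were 0.04 and 0.03. The 10 lower calls in activated cells were 6 without replicate 1 of activated WT, without replicate 2 of the activated WT clone or without replicate 2 of activated KO1. RNA from bulk cultures cannot tell fewer cells making an RNA from less RNA per cell.

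**Figure D1:**
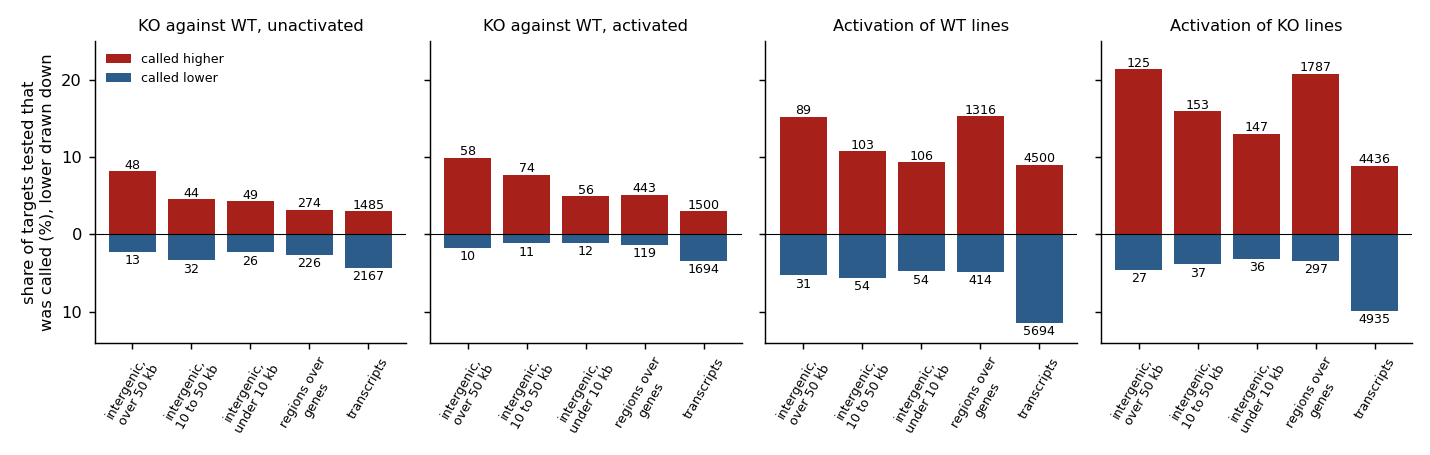
Share of tested targets (percent) called higher (drawn up) or lower (drawn down) in 4 comparisons, for the distal intergenic regions over 50 kb from a coding gene and 4 other kinds of target, with counts printed at the bars. In both KO comparisons the bar for distal regions goes up to 8.22% and 9.93%, and down to 2.23% and 1.71%.

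Intergenic regions nearer to genes gave smaller shares of higher calls. Of 958 regions tested at 10000 to 50000 bases, 44 were higher in unactivated and 74 in activated KO cells, or 4.59% and 7.72%. Of 1128 tested within 10000 bases, 49 and 56 were higher, or 4.34% and 4.96%. The differences between these sets were not tested. Within the distal set, 22 of 261 regions at 50000 to 100000 bases, 18 of 175 at 100000 to 200000 bases and 18 of 148 beyond were higher in activated KO cells.

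Of the regions called, 32 were higher in KO lines in both states, which is 66.7% of the 48 and 55.2% of the 58, and 5 were lower in both. These 5 were region_5961, region_14617, region_25975, region_31751 and region_32104. No region was called in opposite directions. The overlap of calls between the states was not counted over all targets. Every KO library exceeded every WT library for 29 of the 48 and 40 of the 58 higher regions, and stayed below for 5 of the 13 and 7 of the 10 lower ones. The calls came from the same libraries, so these counts describe the called regions and add no support. Over all 1357 distal regions, 37 unactivated and 56 activated lay wholly above, and 8 and 9 wholly below. Such a share was not counted over all targets. The direction of the difference was equal in all 4 pairings of a KO line with a WT line for 47 of 48 higher and 13 of 13 lower regions in unactivated cells, and for all 68 called in activated cells. The pairings are made of the line means that the call averaged, so equal signs were largely fixed by the selection. Fewer were called in each of the 4 pairings on its own: 7 higher and 3 lower unactivated, 18 higher and 1 lower activated. The 48 higher regions lay in 31 intervals and the 58 in 36, so several neighbouring regions were often counted together. With counts summed per line, which leaves 2 lines against 2, only 6 regions unactivated and 5 activated were called; these were region_10292, region_10293, region_17412 and region_26723 in both states, region_17413 and region_32104 unactivated and region_47073 activated.

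**Figure D2:**
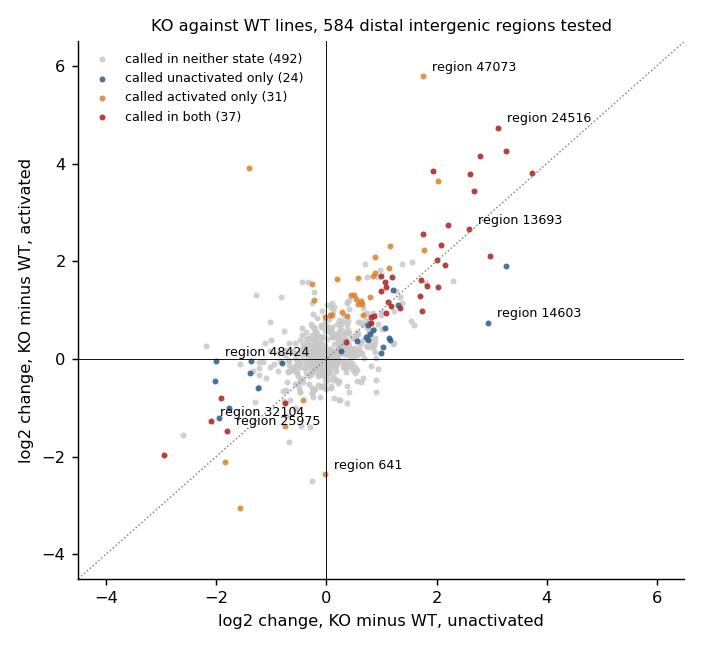
Log2 change of KO against WT lines in unactivated (x axis) and activated cells (y axis) for the 584 distal regions tested, coloured by the state in which each was called; the dotted line marks equal change. Of the points, 37 were called in both states, 24 only unactivated, 31 only activated and 492 in neither, and region_47073 stands highest.

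No other interval held as many raised regions as the one beside Tle4, which encodes a corepressor of the Groucho family. It spans 528101 bases between the olfactory receptor gene Olfr1505 and Tle4 on chromosome 19. It holds 16 distal regions, the largest number in any interval. Of these, 13 are nearest to Tle4, at 57030 to 249638 bases from its edge, and 12 of the 13 were tested. In KO lines 8 of the 12 were higher unactivated, 10 were higher activated and 7 were higher in both. The called log2 changes ran from 1.29 to 3.26 unactivated and from 2.08 to 4.73 activated.

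Summed over the 16 regions, the interval gave 2.00 to 3.40 CPM in unactivated WT libraries (median 2.58) and 5.26 to 15.8 in unactivated KO libraries (median 9.36). In activated cells it gave 1.89 to 2.68 CPM in WT (median 2.15) and 9.79 to 27.4 in KO (median 15.7). No KO library fell into the WT range in either state. The interval was singled out by calls from the same libraries, so its sums describe it and add no support. Line KO2 lay above KO1 in 10 of the 12 tested regions unactivated and 11 activated, but no region of the interval was called between KO1 and KO2.

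Region_24516 (chr19:14251380-14253124) changed most in the interval. It was 0.00 to 0.06 CPM in activated WT libraries with a median of 0.03, and 0.47 to 1.59 in activated KO libraries with a median of 0.92, a log2 change of 4.73 ± 0.46 (adjusted p = 1.15e-06). Region_24523 (chr19:14359979-14361177) rose from a median of 0.09 to 1.60 CPM in the same comparison (log2 change 4.25 ± 0.48, adjusted p = 8.87e-06). Region_24517 (chr19:14256238-14258945) was the most abundant of them, with 0.09 to 0.63 CPM in activated WT and 2.02 to 6.28 in activated KO libraries (3.43 ± 0.40, adjusted p = 1.03e-05). In these 3 regions every KO library lay above every WT library in both states. Region_24515 and region_24521 rose as well, with log2 changes of 2.61 ± 0.29 and 1.93 ± 0.34 unactivated and 3.78 ± 0.30 and 3.84 ± 0.38 activated. Region_24522 rose in activated cells by 4.15 ± 0.71 (adjusted p = 0.000755); its call in unactivated cells, 2.78 ± 0.73 with adjusted p = 0.0238, was lost without replicate 2 of unactivated KO1, at 2.65. The unactivated call of region_24526, 1.29 ± 0.37, was lost on leaving out any of 10 libraries in turn, with values of 1.10 to 1.40. RNA from the 8 regions inside Tle4 did not pass the test, with log2 changes of -0.01 ± 0.24 unactivated and -0.02 ± 0.24 activated.

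**Figure D3:**
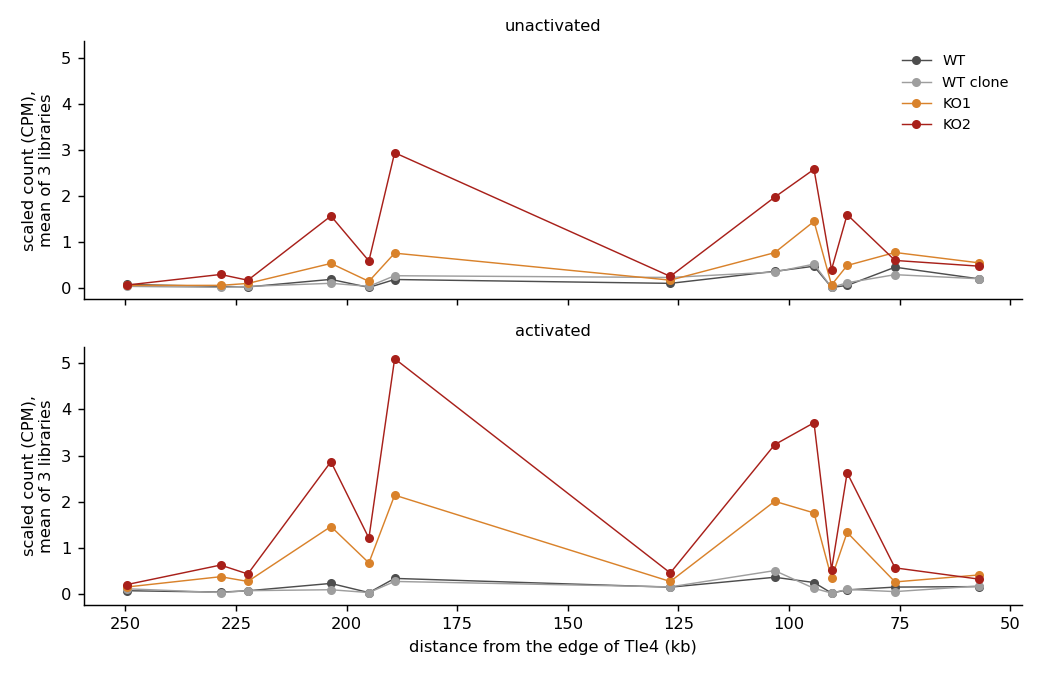
Mean scaled count (CPM, mean of 3 libraries) of the 13 distal regions nearest to Tle4 against their distance from the edge of that gene (kb), by line, in unactivated (top) and activated cells (bottom). Both KO lines rise above both WT lines near 200 kb and near 90 kb, and KO2 is above KO1 in 11 of the 12 tested regions in activated cells.

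A paralogue, Tle3, neighbours the region with the largest single change. Region_47073 (chr9:61168735-61169566, 202760 bases from Tle3) gave 0.06 to 0.16 CPM in activated WT libraries with a median of 0.11, and 4.87 to 6.39 in activated KO libraries with a median of 6.04. Both KO lines were at the same level, 5.75 and 5.79 CPM, and all 6 of their activated libraries stood far above the rest. The log2 change was 5.79 ± 0.48 (adjusted p = 5.96e-07), from 1133 against 20 counts, a ratio of 57.2 with an exact 95% interval of 36.9 to 94.1 that covers counting error only. In unactivated cells there were 5 counts in all KO libraries together and 1 in all WT libraries, and no difference could be called at that depth. A second region of the interval, region_47075 (chr9:61215259-61216786), showed 64 against 4 counts in activated cells, a ratio of 16.2 with an interval of 6.02 to 61.1 (log2 change 3.92 ± 0.88, adjusted p = 0.00978). RNA from the 2 regions inside Tle3 changed by 0.22 ± 0.19 between genotypes in activated cells and was not called (adjusted p = 0.633).

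On chromosome 15, regions beyond the far end of the noncoding gene Pvt1 were higher in KO lines. They lie 272051 or more bases from Myc, the growth-promoting transcription factor whose gene sits on the other side of Pvt1. The interval between Myc and Gsdmc held 14 distal regions, of which 11 were tested, 4 rose unactivated and 5 activated, and none fell. Region_17412 (chr15:62265271-62268790) gave 1.63 to 2.72 CPM in unactivated WT (median 1.83) and 5.86 to 7.04 in unactivated KO libraries (median 6.44), a log2 change of 1.70 ± 0.18 (adjusted p = 3.69e-06). Activated, it gave 1.19 to 2.23 (median 1.56) and 3.19 to 4.75 CPM (median 4.20), a change of 1.28 ± 0.18 (adjusted p = 9.43e-05). The genotypes did not overlap in either state.

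Region_17413 next to it changed by 1.73 ± 0.15 unactivated and 0.98 ± 0.15 activated (adjusted p = 3.43e-07 and 0.000233). Region_17415 was called in activated cells alone (1.76 ± 0.31, adjusted p = 0.00105), with 0.89 ± 0.29 and adjusted p = 0.0769 unactivated. Region_17411 in unactivated cells (1.33 ± 0.30, adjusted p = 0.00817) and region_17417 in activated cells (1.58 ± 0.30, adjusted p = 0.00225) stayed called without each library in turn. Their calls in the opposite state did not: that of region_17411 in activated cells (1.05 ± 0.31) was lost without any of 9 libraries, with values of 0.77 to 1.11, and that of region_17417 in unactivated cells (1.06 ± 0.30) without any of 8, with values of 0.87 to 1.11. The region inside Myc itself was not called, at -0.07 ± 0.18 and 0.06 ± 0.18.

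The interval between Ahr, the gene of a ligand-activated transcription factor, and Agr3 on chromosome 12 held 5 tested regions, of which 2 rose in both states. Region_10293 (chr12:35710711-35713178) ran from 0.30 to 1.12 CPM in unactivated WT (median 0.73) and from 2.67 to 4.11 in unactivated KO libraries (median 2.94), and from 0.95 to 1.16 (median 1.01) against 3.80 to 6.21 (median 5.31) in activated cells. The log2 changes were 2.08 ± 0.24 and 2.33 ± 0.24 (adjusted p = 8.85e-06 and 2.34e-06). Region_10292 beside it had 2 against 38 counts unactivated and 6 against 94 activated, ratios of 18.1 (4.67 to 155) and 15.8 (7.01 to 44.2). The genotypes were apart for both regions. RNA from the 4 regions inside Ahr was itself higher in unactivated KO lines (1.13 ± 0.31, adjusted p = 0.0222) and not called activated (0.33 ± 0.25, adjusted p = 0.556).

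In the 3696668 bases between Zeb2, which encodes a zinc finger repressor, and Acvr2a on chromosome 2, 14 distal regions were found and 6 were tested. Region_26723 (chr2:46363136-46373402, 1245694 bases from Zeb2) rose from a median of 0.52 to 2.58 CPM in unactivated cells and from 0.66 to 4.44 in activated cells. Its log2 changes were 2.20 ± 0.32 and 2.74 ± 0.33 (adjusted p = 0.000162 and 1.58e-05), with no overlap of the genotypes. Region_26721 rose by 1.00 ± 0.22 and 1.39 ± 0.22 (adjusted p = 0.00646 and 0.000317). RNA from the 4 regions inside Zeb2 was not called, at -0.29 ± 0.29 and 0.12 ± 0.29.

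Beside Zfp36l1, the gene of an RNA-binding protein that promotes decay of AU-rich mRNAs, region_11002 (chr12:79999887-80008297) had 0.37 to 1.32 CPM in unactivated WT (median 0.71) and 1.89 to 4.98 in unactivated KO libraries (median 2.77). The change was 2.01 ± 0.23 unactivated and 2.03 ± 0.23 activated (adjusted p = 9.08e-06 and 6.99e-06), and it rose with activation in both genotypes, by 1.08 ± 0.23 and 1.10 ± 0.22. The 1 region inside Zfp36l1 was called higher in activated KO cells (2.54 ± 0.76, adjusted p = 0.0354) and at -1.90 ± 0.66 unactivated, not called (adjusted p = 0.0904). Its activated line means were 0.09 CPM for WT, 1.11 for WT clone, 1.91 for KO1 and 1.85 for KO2. Unactivated they were 1.20, 3.66, 0.47 and 0.65 CPM in the same order. The WT lines were thus far apart, and the size of the activated change rests largely on the low parental WT. The 30 regions inside Rad51b, on the other side of region_11002, were higher in both states, by 0.63 ± 0.14 and 1.05 ± 0.14 (adjusted p = 0.0041 and 4.89e-06).

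Region_13693 (chr13:84378370-84379704, 82404 bases from Tmem161b) gave 0.57 to 1.78 CPM in unactivated WT (median 0.97) and 5.10 to 8.57 in unactivated KO libraries (median 5.67). In activated cells it gave 0.32 to 1.11 (median 0.73) and 3.25 to 5.71 CPM (median 3.98). These are log2 changes of 2.59 ± 0.18 and 2.65 ± 0.18 (adjusted p = 1.45e-08 and 1.74e-08), and every KO library lay above every WT library. The 1 region inside Tmem161b was not called, at -0.09 ± 0.33 and 0.18 ± 0.33.

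Next to Tbl1xr1, a subunit gene of the NCoR and SMRT corepressor complexes, region_29677 (chr3:21987456-21992286) was higher in KO lines by 1.18 ± 0.21 unactivated and 1.09 ± 0.20 activated (adjusted p = 0.000989 and 0.00166), while RNA from the 13 regions inside Tbl1xr1 was not called, at -0.28 ± 0.15 and -0.07 ± 0.15. Upstream of the Mir17 microRNA gene, region_16364 was higher by 0.86 ± 0.18 and 0.87 ± 0.18 (adjusted p = 0.00502 and 0.00418). The calls of region_16365, 2334 bases from Mir17 (0.36 ± 0.10 and 0.35 ± 0.10), did not hold on leaving out any of 10 unactivated or 12 activated libraries, with values of 0.30 to 0.39 and 0.31 to 0.37.

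Several single regions showed the same direction. Region_49687 (chrX:167103329-167108831, 98262 bases from Tmsb4x, the thymosin beta gene) gave 0.23 to 0.73 CPM in unactivated WT (median 0.33) and 0.78 to 1.03 in unactivated KO libraries (median 0.88), and 0.63 to 1.34 (median 0.95) against 2.39 to 3.51 CPM (median 2.99) in activated cells. Its log2 changes were 1.19 ± 0.20 and 1.68 ± 0.19 (adjusted p = 0.000538 and 8.4e-06), and the genotypes did not overlap. Region_22506 on chromosome 17 rose by 1.00 ± 0.21 and 1.69 ± 0.22 (adjusted p = 0.00538 and 3.28e-05), and region_4658 (chr10:43818311-43819236) by 2.15 ± 0.44 and 1.93 ± 0.43 (adjusted p = 0.0041 and 0.00737).

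Near Map3k1, a kinase gene of the JNK pathway, 3 regions were higher in activated KO cells and none was called unactivated. Region_14331 (chr13:111977501-111979945) led by adjusted p, with 0.85 to 1.94 CPM in activated WT (median 1.21) and 1.93 to 4.78 in activated KO libraries (median 3.11), a log2 change of 1.30 ± 0.17 (adjusted p = 4.49e-05). Its highest WT library lay just above its lowest KO library. Region_14328 and region_14332 rose by 1.86 ± 0.36 and 1.12 ± 0.22 (adjusted p = 0.00248 and 0.00278). Their unactivated changes were 1.14 ± 0.36 and 0.64 ± 0.22 (adjusted p = 0.0606 and 0.0924), and the difference between the states was not called for any of the 3. RNA from the 6 regions inside Map3k1 was also higher in activated KO cells (0.79 ± 0.13, adjusted p = 0.000157), and its unactivated change of 0.41 ± 0.13 was not called (adjusted p = 0.06).

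**Figure D4:**
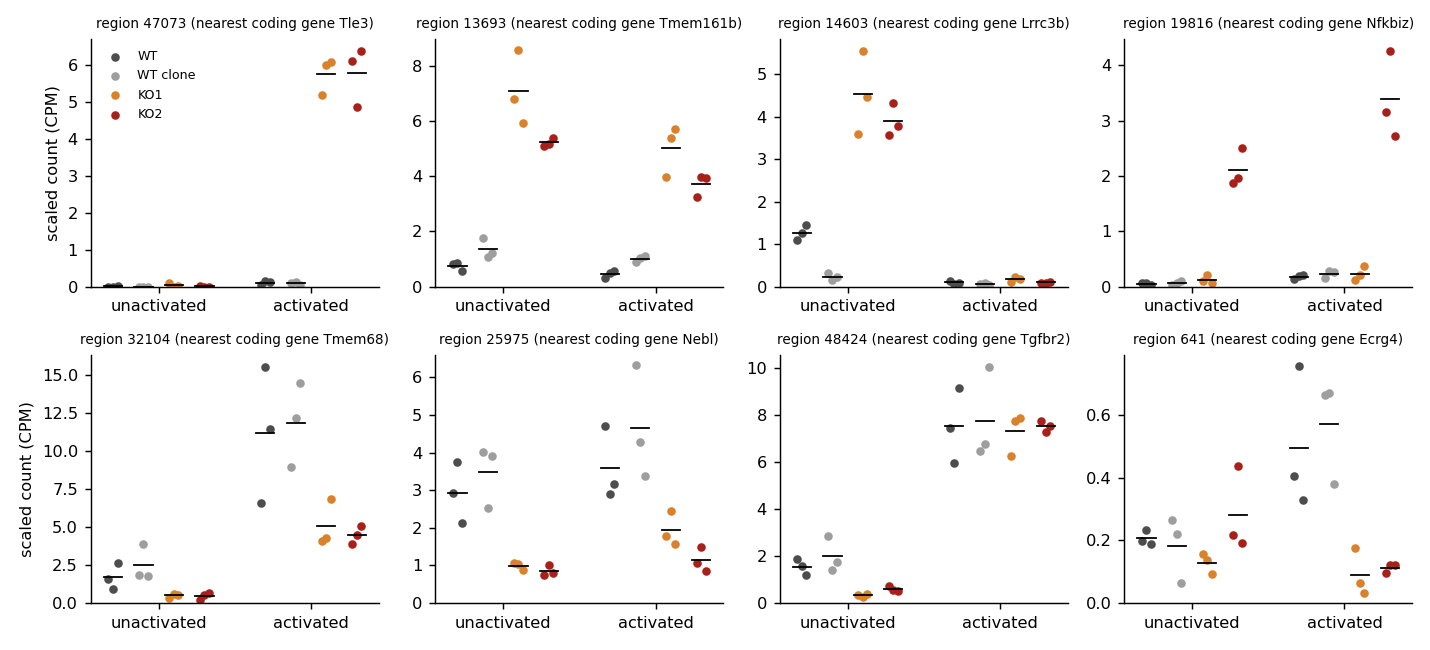
Scaled count (CPM) of 8 distal regions in all 24 libraries, by line and state; each point is 1 library and each bar the mean of 3. Region_47073 is raised in the 6 activated KO libraries and region_19816 in the 6 KO2 libraries, while region_25975 is lower in KO lines in both states.

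Not every call held in both KO lines. Region_19816 (chr16:55623029-55624340, 187035 bases from Nfkbiz, the gene of an atypical inhibitor of NF-kB) was called higher in KO lines in both states, by 2.98 ± 0.35 and 2.10 ± 0.31. Line KO2 alone was high: unactivated, WT averaged 0.06 CPM, the WT clone 0.07, KO1 0.12 and KO2 2.12, and activated they averaged 0.18, 0.23, 0.23 and 3.38 CPM in the same order. KO2 exceeded KO1 by 4.11 and 3.83 on the log2 scale (adjusted p = 6.48e-05 and 8.21e-05). Region_35437 (chr5:29946661-29951327), 61787 bases from the cytokine gene Il6, was called by 1.08 ± 0.22 unactivated and 1.48 ± 0.21 activated (adjusted p = 0.0035 and 0.000102). In unactivated cells its line means were 0.45 CPM for WT, 0.16 for WT clone, 0.34 for KO1 and 0.95 for KO2, so KO1 lay below parental WT and only KO2 lay above both WT lines. In activated cells they were 0.85, 0.33, 1.23 and 1.81 CPM, with both KO lines above both WT lines. Between the WT lines 2 distal regions were called in each state, where 0.527% and 0.506% of all targets were called, and between the KO lines 2 in each state, against 0.403% and 0.46%. The others were region_14603 and region_39849 in unactivated WT lines, region_3571 and region_39849 in activated WT lines, region_35437 in unactivated KO lines and region_47694 in activated KO lines.

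Regions with less RNA in KO lines were spread over single intervals. Region_25975 (chr2:17844885-17846287, 109936 bases from the muscle protein gene Nebl) gave 2.12 to 4.02 CPM in unactivated WT (median 3.34) and 0.75 to 1.06 in unactivated KO libraries (median 0.94). In activated cells it gave 2.90 to 6.32 (median 3.83) and 0.85 to 2.46 CPM (median 1.53). The log2 changes were -1.80 ± 0.22 and -1.47 ± 0.21 (adjusted p = 1.62e-05 and 0.000148), and the genotypes did not overlap. Region_32104 (chr4:3418338-3420664, 128377 bases from Tmem68) fell by 2.10 ± 0.33 unactivated and 1.28 ± 0.30 activated on the log2 scale (adjusted p = 0.000275 and 0.0118). It rose with activation in both genotypes, from a median of 1.80 to 11.8 CPM in WT and from 0.52 to 4.37 CPM in KO libraries. Region_31751, whose upstream stretch is printed above, had 2.22 to 3.46 CPM in unactivated WT (median 2.82) and 1.47 to 1.91 in unactivated KO libraries (median 1.64), and the genotypes did not overlap in either state. Its log2 changes were -0.75 ± 0.18 and -0.90 ± 0.18 (adjusted p = 0.0146 and 0.00367); the first missed the threshold with no filter on low counts (adjusted p = 0.0563).

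In unactivated cells region_5961 (chr10:96263538-96266896, between Eea1 and Btg1, the latter an antiproliferative gene) fell from a median of 0.63 to 0.18 CPM (log2 change -1.92 ± 0.25, adjusted p = 4.76e-05). Its activated call, -0.80 ± 0.22 with adjusted p = 0.0336, was lost without any of 7 libraries, with values of -0.83 to -0.66. In the same interval region_5968 went the other way in activated cells, at 2.07 to 3.89 CPM in WT and 4.29 to 11.4 in KO libraries. Its unactivated libraries overlapped. Region_5970 was also called higher in activated KO cells, but that call was lost without any of 11 libraries, with values of 0.84 to 1.02. Region_24324 on chromosome 19 (-1.77 ± 0.42, adjusted p = 0.0119) and region_30014 (-1.39 ± 0.32, adjusted p = 0.00971), 68447 bases from the forkhead factor gene Foxo1, were lower unactivated, with overlapping libraries. In activated cells region_49158 on chromosome X fell from a median of 1.37 to 0.60 CPM (-1.38 ± 0.28, adjusted p = 0.00368), with no overlap. Region_14617 (-1.97 ± 0.56, adjusted p = 0.039) and region_15849 (-2.10 ± 0.60, adjusted p = 0.0423) were also called lower activated, but each call was lost without any of 11 libraries, with values of -2.14 to -1.72 and -2.22 to -1.91.

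Activation raised more of these regions than it lowered. In WT lines 89 rose and 31 fell, where 10% and 10.2% of all targets did. In KO lines 125 rose and 27 fell, where 10.9% and 8.73% did. These calls were 15.2% and 5.31% of the tested distal regions in WT lines, and 21.4% and 4.62% in KO lines. Numbered regions that overlap a gene gave similar shares, 15.3% and 4.82% in WT lines and 20.8% and 3.46% in KO lines. The excess of rises was thus not particular to distal regions. The median log2 changes of the distal regions were 0.26 and 0.37. Those of all targets were 0.02 and 0.07, and those of regions overlapping a gene 0.24 and 0.36. This balance depended on the scaling: with a fit on numbered regions alone, 65 rose and 52 fell in WT lines and 87 rose and 61 fell in KO lines, and the medians were 0.03 and 0.02. The genotypes shared no library here, and 70 regions rose in both, or 78.7% of the WT and 56.0% of the KO calls, while 19 fell in both, or 61.3% and 70.4%. This overlap was not counted over all targets, so it is given as a description only.

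**Figure D5:**
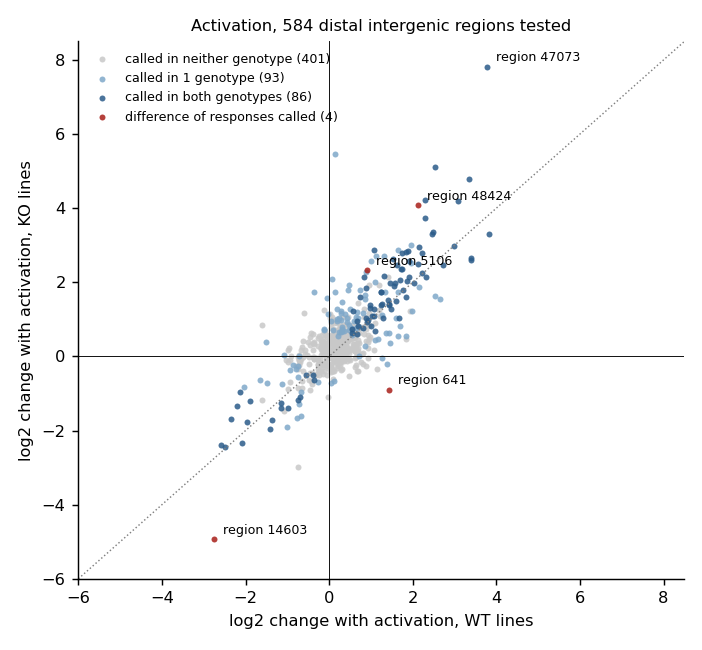
Log2 change with activation in WT lines (x axis) and KO lines (y axis) for the 584 distal regions tested; the dotted line marks equal change. Of the points, 86 were called in both genotypes, 93 in 1, 401 in neither, and 4 shown in red had a called difference between the responses.

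Among called regions at 0.3 CPM or more in a state, the 4 highest rises of WT lines lay in 3 intervals. Below that level, region_47073 had 20 against 1 counts in WT lines, a ratio of 18.2 with an interval of 2.91 to 754. Between Eea1 and Btg1, 5 of 6 tested regions rose in each genotype, among them region_5977 (WT 3.83 ± 0.69, KO 3.30 ± 0.66) and region_5962 (3.33 ± 0.58 and 4.79 ± 0.67). Unactivated KO libraries of region_5962 were at 0.00 to 0.03 CPM, near the floor, so the size of its KO change is poorly fixed. The interval summed to 2.37 to 5.31 CPM in unactivated WT (median 3.78) and 11 to 16.1 in activated WT libraries (median 12.3). Region_29676 (chr3:21982899-21985394), beside Tbl1xr1, rose from 0.13 to 0.79 CPM (median 0.51) to 4.32 to 7.0 (median 4.79) in WT libraries, a change of 3.41 ± 0.25 (adjusted p = 1.58e-08). Region_19818 beside Nfkbiz rose by 3.39 ± 0.75 in WT lines (adjusted p = 0.0028). In all 4 regions every activated WT library exceeded every unactivated one. Region_6910, whose end is printed above, rose by 1.10 ± 0.18 in WT lines (adjusted p = 0.000218) and 0.68 ± 0.18 in KO lines (adjusted p = 0.011), with overlapping states in KO lines.

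In KO lines region_47073 beside Tle3 rose from 5 to 1133 counts, a ratio of 219 with an interval of 93.5 to 675 (log2 change 7.81 ± 0.56, adjusted p = 3.34e-08). Region_47075 had 64 against 1 counts, a ratio of 61.8 with an interval of 10.7 to 2478 (adjusted p = 0.000774), and region_1283 (chr1:80424866-80425204), 75864 bases from Dock10, had 67 against 2 counts, a ratio of 32.3 with an interval of 8.61 to 273 (adjusted p = 0.000737). For both, the 3 unactivated KO1 libraries were all at 0, so the size of the fitted change is not given. In WT lines the same region had 27 against 4 counts and a change of 2.54 ± 0.84 (adjusted p = 0.0413). On chromosome X, 4 of 10 tested regions between the histone variant gene H2al1j and Bcor, a BCL6 corepressor gene, rose in each genotype, among them region_48747 (1.87 ± 0.20 in WT and 2.04 ± 0.20 in KO lines).

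Among the regions that fell, region_3571 (chr1:184657171-184661088, 66055 bases from the homeobox gene Hlx) gave 1.44 to 2.54 CPM in unactivated WT (median 1.81) and 0.12 to 0.54 in activated WT libraries (median 0.40). In KO libraries it went from 2.77 to 3.78 (median 3.20) down to 0.43 to 0.80 CPM (median 0.59). The log2 changes were -2.49 ± 0.20 and -2.44 ± 0.19, with no overlap of the states. Region_31323, 65427 bases from the sphingosine phosphate receptor gene S1pr1, fell by 2.36 ± 0.33 and 1.69 ± 0.32, and region_17415 in the Myc interval by 2.21 ± 0.31 and 1.34 ± 0.29. Region_14284 near Plk2, a polo-like kinase gene, fell in KO lines by 2.38 ± 0.39 and region_23314 on chromosome 18 by 2.34 ± 0.56 (adjusted p = 0.000162 and 0.00516).

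A difference between the activation responses of KO and WT lines was called for 4 regions, 2 higher and 2 lower, beside 0.766% and 0.388% of all targets. The 2 higher were 4 without replicate 2 of the unactivated WT clone. The 2 lower were 0 without replicate 1 of activated WT, or replicate 1 or 2 of the activated WT clone, and 1 without any of 17 other libraries. Region_48424 (chr9:116243466-116245606, 68103 bases from the TGF-beta receptor gene Tgfbr2) was 1.17 to 2.84 CPM in unactivated WT (median 1.65) and 0.24 to 0.72 in unactivated KO libraries (median 0.44). Activated, it was 5.95 to 10.1 (median 7.10) and 6.27 to 7.88 CPM (median 7.64). The genotypes were thus apart before activation and overlapped after it, and the difference of the responses was 1.95 ± 0.27 (adjusted p = 0.000502). Region_5106 (chr10:66951180-66957163, 52026 bases from Reep3) was apart only after activation, at medians of 1.63 CPM in WT and 3.48 CPM in KO libraries, with a difference of 1.43 ± 0.23 (adjusted p = 0.00263).

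Region_14603 (chr14:15746605-15747447, 307618 bases from Lrrc3b) was 0.15 to 1.45 CPM in unactivated WT (median 0.71) and 3.58 to 5.55 in unactivated KO libraries (median 4.05), a log2 change of 2.93 ± 0.24 (adjusted p = 1.23e-07). After activation it was at most 0.14 and 0.22 CPM. Its line means in unactivated WT cells were unequal, 1.27 CPM in WT and 0.23 in the WT clone (adjusted p = 0.00108). The difference of the responses was -2.19 ± 0.37 (adjusted p = 0.0141) and was lost on leaving out replicate 1 of activated WT, or replicate 1 or 2 of the activated WT clone, with values of -2.19 to -2.00.

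Region_641 (chr1:43656771-43659945, 70657 bases from Ecrg4) was alike in unactivated cells, at medians of 0.21 and 0.17 CPM. Activated, it was 0.33 to 0.76 CPM in WT (median 0.54) and 0.03 to 0.17 in KO libraries (median 0.11), a log2 change of -2.36 ± 0.40 (adjusted p = 0.000624) with no overlap. The difference of the responses, -2.33 ± 0.55, had an adjusted p of 0.0477 and was lost without any of 20 libraries, with values of -2.44 to -2.10. Region_47073 was not called in this test. All 3 unactivated libraries of the WT clone were at 0 there, so the difference of the responses has no usable estimate; 5 of the 584 tested regions had such a group of libraries.

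The coding genes nearest to these regions were counted in the same comparisons. A gene was measured here as the summed RNA of the numbered regions within it, which may be exonic or intronic and carry no strand. A gene was entered for every distal region it is nearest to, so the same gene can enter repeatedly. The counts of called neighbours below are therefore of regions, and how many distinct genes they stand for was not counted. Of the 58 regions higher in activated KO cells, 40 had a nearest coding gene with a tested value, over 20 genes; the neighbour was higher for 7 of the 40 and lower for 0. For the 48 higher in unactivated KO cells, 31 had such a value, and the neighbour was higher for 3 and lower for 0, beside 14 and 12 over all 284 tested distal regions with a value. In activated KO cells the neighbour was higher for 25 of the 284 and lower for 7. With activation of WT lines the neighbour rose for 20 of 47 raised regions with a value and fell for 2, while over all 284 it rose for 68 and fell for 39.

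A list of 46 B cell and plasma cell regulators held the nearest coding gene of 72 distal regions, over 17 of its genes, and 39 of the 72 were tested. In KO lines 7 were higher and 1 was lower unactivated, and 7 were higher and 0 lower activated. That is 7 of 39 in each state, where 48 and 58 of the 584 tested distal regions and 3.13% and 3.5% of all targets were higher. All of the higher ones lay nearest to Myc (4 and 5) or Zeb2 (3 and 2), and the lower one lay nearest to Foxo1. With activation of WT lines 6 of the 39 rose and 3 fell, where 89 and 31 of the 584 did. Over all targets 10% rose and 10.2% fell. Those of the list that rose were 2 of 3 tested regions nearest to Cd83, an activation marker of B cells, and 1 of 12 nearest to Myc. The others were 1 of 3 nearest to the chemokine receptor gene Cxcr4, 1 of 2 nearest to Mef2c and the 1 tested nearest to Ets1. Mef2c and Ets1 are transcription factor genes. Those that fell were 2 nearest to Myc and 1 nearest to Foxo1. In KO lines 4 of the 39 rose and 5 fell, where 125 and 27 of the 584 and 10.9% and 8.73% of all targets did. Of the 4, 2 were nearest to Myc, 1 to Cxcr4 and 1 to Mef2c, and the 5 were all nearest to Myc. None nearest to Cd83 or Ets1 was called with activation of KO lines. The regions tested beside Ebf1, Bcl6, Irf8, Runx1 and Satb1 passed none of the tests of genotype or activation, which at these counts does not show that they did not differ.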

How the data were processed

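Per the labels' protocols, total RNA of CH12 cells was freed of ribosomal RNA and read from 1 end in strand-specific libraries. Per the submitters' processing notes, kallisto 0.43.0, DESeq2 and GRCm38.p5 were used. The kallisto index and its strand setting have no source here. The authors deposited 1 table of estimated counts per library for 171152 targets. Kallisto shares reads between similar targets, so near-identical copies depend on each other. Region positions are those in the target names, counted from 1, and genes are those of RefSeq GRCm38.p6.

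Counts were rounded, scaled by trimmed means of M values and filtered by edgeR's filterByExpr (10 counts, 3 libraries). One edgeR quasi-likelihood model (edgeR 4.0.16, R 4.3.3) with 8 group means was fitted to 61074 targets of 24 libraries. A target was called at a Benjamini-Hochberg adjusted p under 0.05 over all targets. Log2 changes are between means over lines, and ± is the standard error. The fit was tested on simulated data.

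The distal regions and gene lists were chosen with earlier results of these data known. Named regions are the 5 most abundant; the 6 highest and 6 lowest called KO changes in each state, at 0.3 CPM or more in a genotype and of equal sign in 4 line pairings; the 4 highest and 4 lowest for activation; the called differences of responses; and those at the thresholds. All others were named after their values were seen. Libraries of a group differed by more than sampling noise (chi-square over degrees of freedom 11.88 to 84.64). Another 9 samples (ChIP-seq and GRO-seq) were not analysed here. Alternatives were other scaling, DESeq2 1.42.0, no filter, fewer libraries or targets, sums per line, a replicate block and leaving out each library.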

Additional observations from a re-analysis of the deposited data

Results flagged for a closer look

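The difference between the activation responses of KO and WT lines, tested as an interaction, was called for 4 distal regions. The response was larger in KO lines for region_48424 near Tgfbr2, by 1.95 on the log2 scale, and for region_5106 near Reep3, by 1.43. It was smaller, or more negative, for region_14603 near Lrrc3b, at -2.19, and for region_641 near Ecrg4, at -2.33. Groups of 3 libraries were too small to test for single libraries that stand apart.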

How the results depend on the processing

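No direction reversed under any alternative. With counts summed per line, which leaves 2 lines a genotype, higher and lower calls fell to 5 and 1 for KO against WT unactivated, 5 and 0 activated, 43 and 12 for activation of WT lines, 62 and 15 of KO lines, and 0 and 0 for the difference of responses. With only the libraries of the comparison, lower calls in unactivated KO lines were 7 and activation calls in WT lines 48 and 16; this was not run for the difference of responses. With numbered regions alone in the fit, lower calls were 16 in activated KO lines, 52 and 61 for activation of WT and KO lines, and higher calls for the difference of responses 4. That last count was 6 with DESeq2, and its lower calls were 1 with no filter. The cause of these shifts was not tested. The median share of a library was 0.0421% for regions over 100000 bases from a coding gene, against 0.0681%.

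Leaving out 1 library at a time gave 39 to 50 higher and 10 to 14 lower calls unactivated, 47 to 56 and 6 to 9 activated, and 2 to 4 and 0 to 2 for the difference of responses. Same-numbered samples deviated together with a correlation over 0.1 in 22 of 84 pairs (median 0.06), against 10 of 168 differently numbered pairs (median -0.03). Not every same-numbered pair passed 0.1, and the main fit did not use the numbers. Whether some same-numbered samples shared a batch was not tested. The fit with the replicate block gave 49 and 13 calls unactivated, 57 and 10 activated, 89 and 33 for activation of WT lines, 127 and 28 of KO lines, and 3 and 2 for the difference of responses. Depth limits all of this: 773 regions were too sparse to test.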
